A study of Mus musculus with 6 samples.

Results

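Greb1, its paralogue Greb1l and 3 nuclear receptor genes, Esr1, Esrra and Nr3c1, were followed in pancreatic acinar cells with and without an intact Trip12 gene. The identifiers are ENSMUSG00000036523 for Greb1, ENSMUSG00000042942 for Greb1l, ENSMUSG00000019768 for Esr1, ENSMUSG00000024955 for Esrra and ENSMUSG00000024431 for Nr3c1. They are 5 of the 55414 identifiers counted in each library, and 3 of the 13115 that had enough counts to be tested. The members were chosen by a measured value: Greb1 was picked from the knockout against control difference in these same libraries, and the other 4 were added for their known ties to it. Their difference between the groups is therefore given as a description, with no p, and counts of members called stand only beside the share over all genes.

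The 3 control preparations were labelled Pdx1Cre;Trip12+/+ and the 3 knockout preparations Pdx1Cre;Trip12fl/fl. All 6 were labelled as untreated pancreatic acinar cells of adult animals, so the Cre transgene was common to both groups. Pdx1 is active in the progenitors of the pancreatic epithelium, so this Cre is expected to act in duct and islet cells as well as in acinar cells, and not in leukocytes or stromal cells of the same preparation. The titles number the preparations as biological replicates and give each its own identifier, but do not state that each came from a separate animal. The sex-linked counts below differ among the controls, so not all controls came from the same animal. The spread is that between these 3 preparations per group.

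GREB1 is a nuclear protein first known as an early target of the oestrogen receptor in breast cancer cells, where it binds the receptor as a cofactor. ESR1 encodes oestrogen receptor alpha. ESRRA encodes an orphan receptor related to it that binds no oestrogen and drives genes of mitochondrial metabolism together with PGC-1 coactivators. NR3C1 encodes the glucocorticoid receptor. These receptors bind short DNA elements in or near target genes. GREB1L is a homologue needed for kidney development.

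The RefSeq promoter table (build GRCm38.p6, 250 bases before to 50 after an annotated start) held 3 of the 5 genes, Greb1, Esr1 and Esrra. Both Greb1 windows are shown because Greb1 is the member whose level differed. Each runs 5′ to 3′ along the gene, on the minus strand, at chr12:16800837-16801136 for the first start and chr12:16757190-16757489 for a start inside the gene. Capitals mark the half-site of the oestrogen response element, GGTCA or its reverse complement TGACC.
Greb1, first start: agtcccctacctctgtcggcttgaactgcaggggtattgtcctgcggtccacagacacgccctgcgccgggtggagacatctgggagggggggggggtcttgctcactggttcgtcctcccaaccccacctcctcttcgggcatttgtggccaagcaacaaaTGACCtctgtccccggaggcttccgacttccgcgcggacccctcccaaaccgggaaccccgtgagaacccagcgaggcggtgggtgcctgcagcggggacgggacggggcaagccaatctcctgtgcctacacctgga
Greb1, internal start: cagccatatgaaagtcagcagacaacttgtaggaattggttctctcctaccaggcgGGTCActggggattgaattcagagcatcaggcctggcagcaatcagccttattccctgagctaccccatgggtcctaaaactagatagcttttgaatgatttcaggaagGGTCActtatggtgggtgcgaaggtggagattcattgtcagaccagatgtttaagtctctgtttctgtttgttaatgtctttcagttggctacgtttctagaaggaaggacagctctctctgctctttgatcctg

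The first window held 1 half-site, at bases 163 to 167, and the internal window held 2, at bases 57 to 61 and 166 to 170, counted from 1 at the 5′ end. Such a half-site is frequent: 40.5% of 32851 promoter windows of this length held at least 1 on either strand. Neither window held the full element GGTCANNNTGACC (0.0700% of windows), the extended ERR half-site TCAAGGTCA (0.423%), the glucocorticoid half-site AGAACA (19.0%) or the full glucocorticoid element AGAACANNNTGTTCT (0.00913%), all searched on both strands. The half-site lies inside the full element and the extended site. In the first of 2 Esr1 windows there was 1 oestrogen half-site, and neither the other Esr1 window nor the Esrra window held any of the 5 motifs.

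Before the members, the libraries were checked against their labels. Gene counts ran from 31019500 to 34041901 per library. Trip12 lay at 29.0, 22.3 and 26.4 CPM (gene counts scaled to a common library size with TMM factors) in controls 1 to 3 and at 14.4, 14.7 and 13.0 CPM in the knockouts, so all knockout libraries were lower (log2 fold change -0.89, SE 0.14). Which exons are flanked by loxP sites is not given in the sources used here, and reads outside them can remain. Acinar genes dominated all 6 libraries: 10 acinar markers summed to between 429575 and 583737 CPM in the controls and between 366145 and 376657 CPM in the knockouts, and none of the 10 was at 0. Xist was counted 2118 and 2440 times in control replicates 2 and 3 and at most 5 times elsewhere, while the Y-linked gene Ddx3y had 546 counts in control replicate 1 and 756 to 842 in the knockouts. The labels do not give sex. By these genes control replicates 2 and 3 were female and the other 4 libraries male, so sex and genotype overlap in the design, and values from males alone rest on 1 control.

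Greb1 was expressed in every control and close to absent in every knockout. Controls 1 to 3 held 242, 292 and 464 Greb1 counts and knockouts 1 to 3 held 2, 1 and 0. In normalised terms this was 7.62, 11.99 and 16.9 CPM against 0.0536, 0.0285 and 0 CPM. The groups did not overlap, and each knockout library was at or under 3 counts, which corresponds to 0.0804 to 0.0856 CPM. The control mean was 12.2 CPM ± 4.62 (SD, n = 3). Summed over each group and scaled by library size, 998 counts against 3 gave a control to knockout ratio of 436, with an exact 95% interval of 149 to 2119 that covers counting error only. The fitted log2 fold change was -8.60 (SE 0.56) at the default prior count of the fit, and such a value depends on that prior. The difference in mean log2 CPM was -7.07 with a prior count of 2 and -8.32 with 0.5. In bulk RNA, fewer cells of a type and less RNA per cell cannot be told apart.

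Greb1 also differed among the controls themselves. The male control had the lowest level, 7.62 CPM, and the 2 female controls averaged 14.4 CPM. With the single male control against the 3 male knockouts the ratio was 279 (exact 95% counting interval 94.2 to 1360). The acinar marker sum in the knockouts was 71.1% of that in the controls, on a scale set by TMM factors. As a share of all gene counts the same markers took 43.6% to 45.8% in the controls and 41.0% to 43.8% in the knockouts. Their median log2 fold change of -0.47 became -0.03 with library totals, a scaling that moved the median of all tested genes from 0.02 to 0.43. Of the 10 markers 9 were lower in the knockouts by the fit, and 5 had groups that did not overlap, beside 22.9% of all genes. edgeR called 0 of them, DESeq2 3 (Cela2a, Prss1 and Cel, beside 4.62%) and the block 2 (Cela2a and Ptf1a, beside 5.99%). Leukocyte markers summed to between 22.1 and 151 CPM in the controls and between 22.2 and 103 CPM in the knockouts, and stromal and endothelial markers to between 30.1 and 140 and between 39.9 and 157 CPM, so both ranges overlapped between the groups. The same held for islet markers (356 to 464 and 245 to 911 CPM) and adipocyte and mesothelial markers (0.288 to 2.05 and 0.0856 to 2.52 CPM). Ductal markers summed to 202 to 243 CPM and 189 to 283 CPM, but single ones moved both ways. With the replicate block Krt7, Spp1 and Epcam were called higher and Krt19 and Muc1 lower, 5 of 8 beside 5.99% of all genes. Without it edgeR called 0 of 8, with 6 at an unadjusted p under 0.05 beside 16.7% of all genes. DESeq2 called 3, Krt19, Spp1 and Muc1, beside 4.62%. The block also called Adgre1 and C1qa of 8 tested leukocyte markers and Pcsk2 of 9 islet markers, all higher. DESeq2 called the islet gene Chga. The part of the acinar or other markers in the Greb1 difference was not tested.

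**Figure D1:**
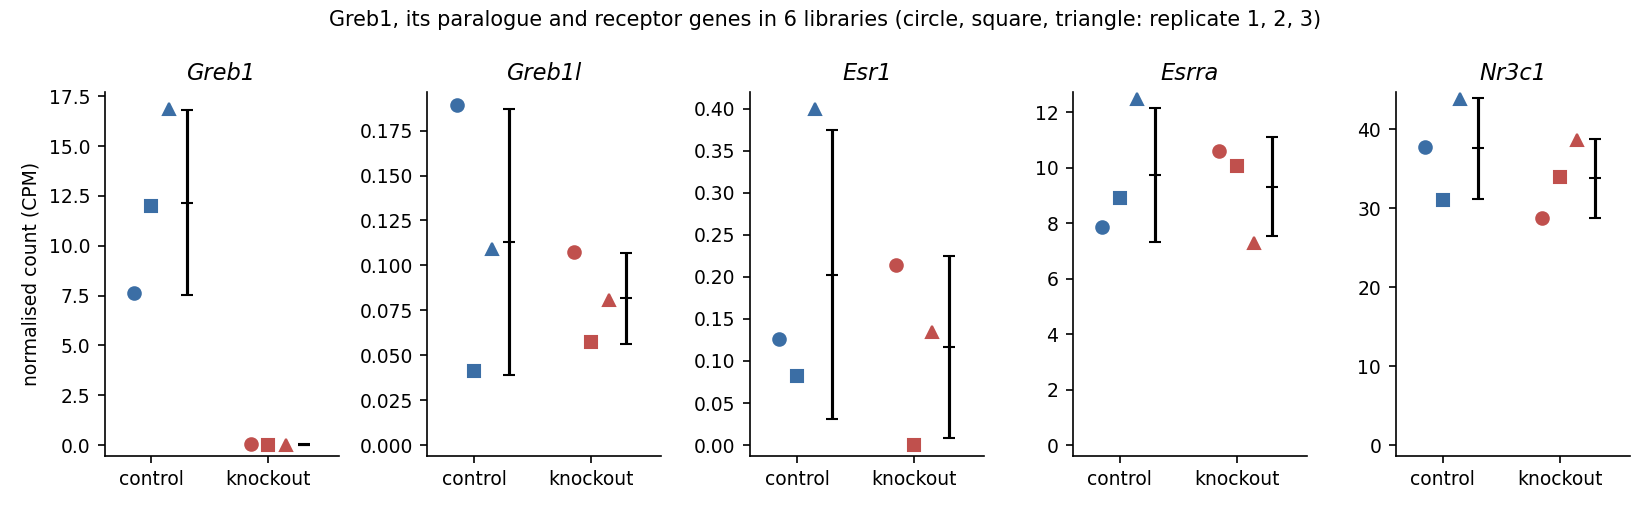
Normalised counts (CPM) of the 5 genes in each library, with replicates 1, 2 and 3 as circle, square and triangle, control in blue, knockout in red, and mean ± SD of 3 libraries in black; each panel has its own axis, starting just below 0. Greb1 lies between 7.62 and 16.9 CPM in the controls and at or below 0.0536 CPM in the knockouts, while the groups overlap in the other 4 panels.

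Among the 5 members, Greb1 alone had groups that did not overlap. Over all tested genes 22.9% of groups did not overlap. Greb1 was also the only member called at an adjusted p under 0.05, against 0.945% of tested genes (124 of 13115), and with the replicate number as a block it was again the only one, against 5.99%. Since Greb1 was picked from this contrast, nothing is read from these counts.

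Part of the Greb1 signal was left out of the count used above. Greb1 overlaps Gm48140, a gene model on the opposite strand, and reads that fall on exons of both are counted to neither when strand is ignored. The deposited tables also count each strand orientation alone, and there those reads are assigned. For Greb1 the sum of both orientations exceeded the unstranded count by 100, 93 and 140 reads in control replicates 1 to 3. For Gm48140 the excess was the same number in every library, 100, 93 and 140. These shared reads made up between 23.2% and 29.2% of the Greb1 reads of a control library, a share that 9.04% of tested genes reached or passed in control.

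Gm48140 had almost no reads of its own. Outside the shared stretch it held 6, 0 and 14 reads in controls 1 to 3 and 0 in each knockout. The forward orientation held about as many Greb1 reads as the reverse, 168 against 174, 205 against 180 and 312 against 292 in control, and no strand-marking step is described in the labels, so reads of a Greb1 transcript and of an antisense transcript cannot be told apart. Taking both models together, the locus held 348, 385 and 618 reads in the controls and 2, 1 and 0 in knockout. Neither model held a shared read in any knockout library. The near-absence therefore held for the stretch shared by both models as well as for the exons of Greb1 alone.

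**Figure D2:**
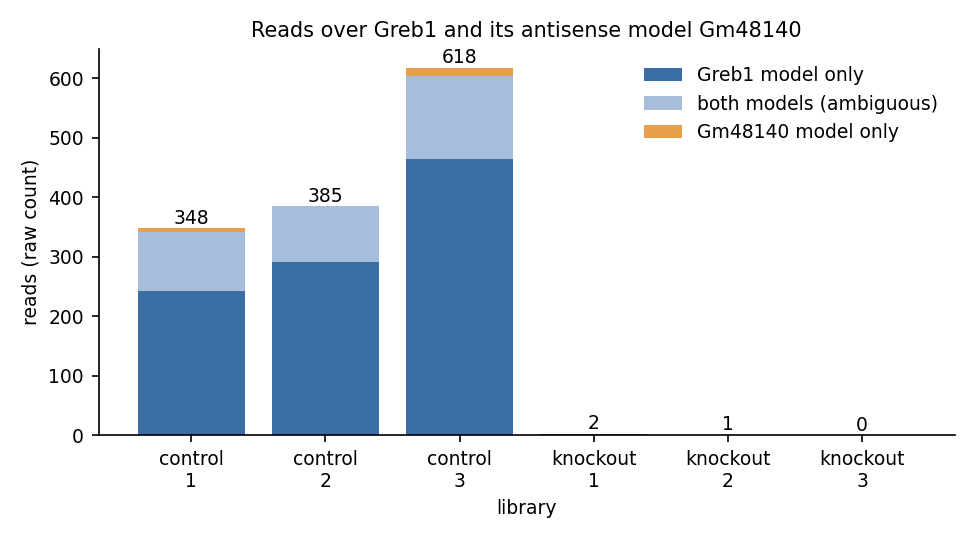
Raw reads per library over Greb1 and its antisense model Gm48140, stacked as reads on Greb1 alone, reads on exons of both models (ambiguous when strand is ignored) and reads on Gm48140 alone. The controls hold 348, 385 and 618 reads in all and the knockouts 2, 1 and 0.

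Greb1l, the paralogue, was barely detected in either group. Controls 1 to 3 held 6, 1 and 3 counts and knockouts 1 to 3 held 4, 2 and 3. The groups overlapped. The ratio of summed counts was 1.46 with an exact 95% counting interval from 0.532 to 4.05, so no difference was detectable at this depth.

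Esr1, the receptor through which oestrogen acts on GREB1 in breast cells, was also near the limit of detection. Controls 1 to 3 held 4, 2 and 11 counts and knockouts 1 to 3 held 8, 0 and 5. The ratio of summed counts was 1.71 (exact 95% counting interval 0.784 to 3.84), and the groups overlapped. ESR1 is known from fibroblasts and endothelial cells, and stromal and endothelial markers summed to 140, 30.1 and 47.1 CPM in controls 1 to 3 and to 157, 39.9 and 112 CPM in knockouts 1 to 3. Knockout 2, with 0 Esr1 counts, was the lowest knockout in that sum, whereas control 3, with the most Esr1 counts, was well below control 1. The part of these cells in the Esr1 counts was not tested.

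Esrra, the orphan receptor, was present at similar levels in both groups. Its level was 7.84, 8.91 and 12.5 CPM in turn in the 3 controls, and 10.6, 10.05 and 7.30 CPM in the 3 knockouts. The means were 9.74 CPM ± 2.42 and 9.32 CPM ± 1.78 (SD, n = 3), and the ranges overlapped widely. The fitted log2 fold change was -0.06 (SE 0.21), and 0.37 when libraries were scaled by their totals without TMM factors, a scaling that moved the median of all tested genes from 0.02 to 0.43. Esrra overlaps Trmt112 on the opposite strand, and the reads shared with other models were between 6.13% and 8.55% of its reads.

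Nr3c1, the glucocorticoid receptor, was the most abundant of the 5. Its level was 37.8, 31.1 and 43.9 CPM in turn in the 3 controls, and 28.7, 34.0 and 38.7 CPM in the 3 knockouts. The means were 37.6 CPM ± 6.39 and 33.8 CPM ± 4.99 (SD, n = 3), with overlapping groups. The fitted log2 fold change was -0.15 (SE 0.17), and 0.25 with library totals, again beside the same shift of all genes. No exon of Nr3c1 shared reads with another model.

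Per length the order of the members in control was Nr3c1, Esrra, Greb1, Esr1 and Greb1l. Their levels in CPM per kilobase of exons were 4.89 ± 0.832, 2.22 ± 0.552, 1.27 ± 0.483, 0.0148 ± 0.0126 and 0.0103 ± 0.00672 (SD, n = 3). Nr3c1 lay above 85.7% of tested genes in this measure, Esrra above 70.3% and Greb1 above 55.4%. The control ranges of Nr3c1 and Esrra did not overlap, and those of Esr1 and Greb1l did. Esrra (1.79 to 2.84) and Greb1 (0.796 to 1.76) were apart by a narrow margin that vanished once the reads shared with Gm48140 and the reads of Gm48140 were added, giving 1.14 to 2.34 for the Greb1 locus. In knockout Nr3c1 and Esrra kept the first and second place at 4.40 ± 0.649 and 2.12 ± 0.405, while the mean of Greb1, 0.00286 ± 0.00280, was under those of Esr1 (0.00850 ± 0.00793) and Greb1l (0.00740 ± 0.00228), whose ranges it overlapped.

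The family of nuclear receptors was examined next, since several of its members can act on GREB1. Of 49 receptor genes, 35 had enough counts to be tested. The edgeR quasi-likelihood fit, adjusted by Benjamini-Hochberg over all tested genes, called 1 of the 35, Pgr, against 0.945% of all tested genes. The median log2 fold change of the 35 was -0.02 beside 0.02 over all genes. At an unadjusted p under 0.05 there were 4 higher and 6 lower of the 35, where 16.7% of all tested genes passed. DESeq2 called 3, adding Nr1h3 and Nr1h4, against 4.62% of all genes, and limma-voom called 1, against 0.64%.

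Pgr, the progesterone receptor and a textbook oestrogen target like GREB1, was counted in the knockouts only. All 3 controls held 0 counts, and knockouts 1 to 3 held 33, 20 and 29. In CPM this was 0.885, 0.571 and 0.778, a mean of 0.744 ± 0.159 (SD, n = 3). Set against a floor of 3 counts in each control library, the mean in the knockouts was at least 6.83-fold higher. With 0 counts in every control, Pgr entered the test only through the knockouts, so its call (edgeR adjusted p 0.0301) lends no support to the difference. That call was lost in 5 of the 6 fits that left out 1 library and held without control replicate 1. It was also lost in male libraries and with sex as a covariate (edgeR adjusted p 0.244 and 0.207), while the fitted log2 fold change, which depends on the prior count, was 7.59 with all libraries, 7.73 in males and 7.59 with the covariate.

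Among other receptors for steroids, Esr2, oestrogen receptor beta, had at most 4 counts in any library. Nr3c2, the mineralocorticoid receptor, averaged 6.03 CPM ± 1.42 in the controls and 6.78 CPM ± 0.828 in knockout (SD, n = 3). Of the receptors related to Esrra, Esrrg averaged 1.61 CPM ± 0.201 and 1.91 CPM ± 0.711, and Esrrb had 2 counts in all.

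Among receptors outside the steroid branch, the bile acid receptor gene Nr1h4 and the oxysterol receptor gene Nr1h3 were called by DESeq2 and with the replicate number as a block, and not in the edgeR fit without it. Nr1h4 lay at 2.33, 5.79 and 5.67 CPM in controls 1 to 3 but at 0.697, 1.34 and 0.617 CPM in knockouts 1 to 3, a log2 fold change of -2.37 (SE 0.44). Without the block its edgeR adjusted p was 0.0535, and with it 0.00158. The male control was the lowest of the controls, and within males the log2 fold change was -1.38 (edgeR adjusted p 0.523). Nr1h3 averaged 5.06 CPM ± 0.386 in the controls and 2.45 CPM ± 0.704 in knockout (SD, n = 3), and its edgeR adjusted p went from 0.0791 to 0.0161 when the block was added. With sex as a covariate in place of the block it was 0.383, and the log2 fold change went from -1.04 to -0.92. That covariate fit called 21 of 13115 genes. In all, 4 of 35 were called with the block, against 5.99% of all genes.

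**Figure D3:**
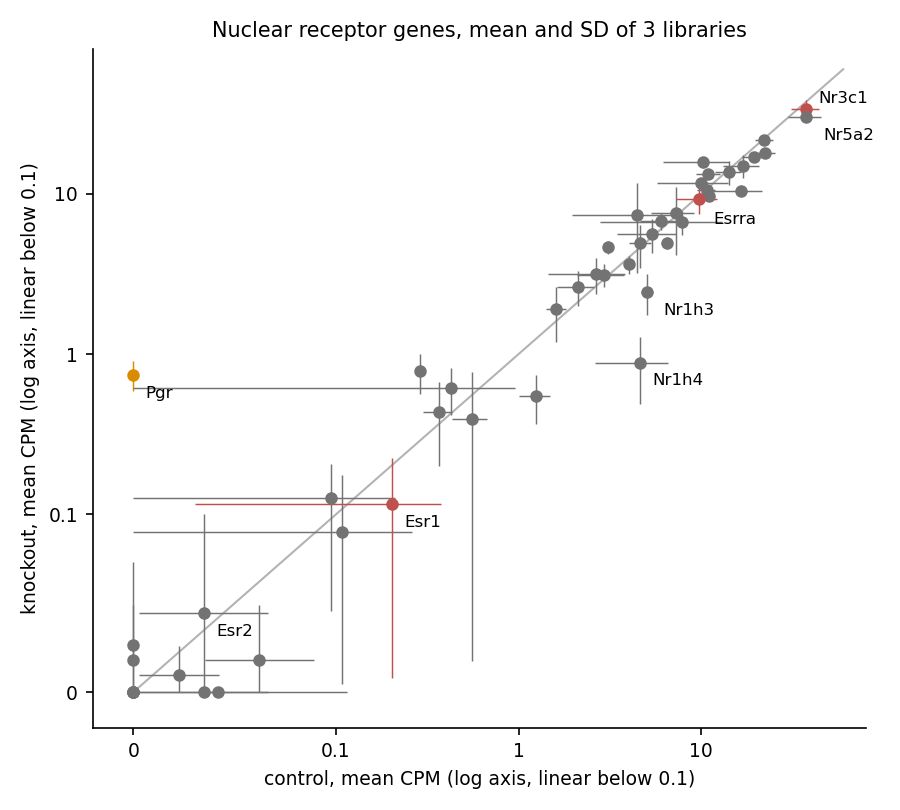
Mean CPM of the 49 nuclear receptor genes in knockout against control, on axes that are logarithmic above 0.1 and linear below it; error bars are the SD of 3 libraries, drawn no lower than 0, and the line marks equal levels. Esr1, Esrra and Nr3c1 (red) have SD bars that reach the line, Pgr (orange) stands at 0 in the controls and 0.744 CPM in the knockouts, and Nr1h4 and Nr1h3 lie below the line.

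The genes that work with these receptors showed few calls. Of 35 coregulators and pioneer factors 33 were tested and 0 were called by edgeR or limma-voom. At an unadjusted p under 0.05 there were 7 of the 33, all higher, beside 16.7% of all genes in either direction. DESeq2 and the blocked edgeR fit each called 2, Safb2 and Tle3, beside 4.62% and 5.99% of all genes. Safb2, a scaffold attachment factor that represses oestrogen receptor activity, ranged from 14.2 to 15.5 CPM among controls and from 20.8 to 33.3 CPM among knockouts, with edgeR adjusted p of 0.0593 without and 0.00828 with the block. The corepressor gene Tle3 averaged 8.63 CPM ± 0.613 and 13.9 CPM ± 2.57 (SD, n = 3), with adjusted p of 0.0875 and 0.0176. With sex as a covariate neither gene was called (edgeR adjusted p 0.352 for Safb2 and 0.398 for Tle3), in a fit that called 21 of 13115 genes. Their log2 fold changes were then 0.81 and 0.64, in place of 0.87 and 0.69. The median of this list was 0.17 beside 0.02 over all genes. Of the 10 chaperones that fold steroid receptors, edgeR and limma-voom called 0, with 2 at an unadjusted p under 0.05. DESeq2 and the blocked fit each called 1, Bag1, at 49.0 CPM ± 5.93 in control and 33.1 CPM ± 2.50 in knockout. Its edgeR adjusted p was 0.107 without the block, 0.0379 with it and 0.451 with sex as a covariate. The log2 fold change of Bag1 with that covariate was -0.44 in place of -0.57.

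Genes known to respond to the receptors were compared in the same way. Of 26 oestrogen-responsive genes 18 were tested and 1 was called, beside 0.945% of all genes. It was Pgr again, which entered the test only through the knockouts. Tff3, not tested, went the other way, with 36, 3 and 4 counts in controls 1 to 3 and 0 in each knockout. The median log2 fold change of the 18 was 0.17 beside 0.02 over all genes, with 10 above and 8 below 0. With the block 3 were called, beside 5.99% of all genes, Pgr and Myc higher and Igf1 lower. Igf1, a growth factor, averaged 37.2 CPM ± 9.22 in the controls and 24.5 CPM ± 4.56 in knockout (adjusted p 0.220 without and 0.0294 with the block, edgeR), and in male libraries its log2 fold change was -0.12 in place of -0.60. Myc, a growth regulator, averaged 26.0 CPM ± 12.6 and 38.6 CPM ± 22.5, with overlapping groups (edgeR adjusted p 0.665 without and 0.0440 with the block). Without knockout 3 its log2 fold change was -0.03 in place of 0.57.

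Of 21 glucocorticoid-responsive genes 19 were tested and edgeR and limma-voom called 0. At an unadjusted p under 0.05 there were 1 higher and 1 lower, beside 16.7% of all genes. DESeq2 called 1, Cdkn1c, beside 4.62% of all genes. The blocked fit called 3, all higher, Cdkn1c, Nfkbia and Errfi1, beside 5.99%. Cdkn1c, a cell cycle inhibitor, held 6, 3 and 3 counts in controls 1 to 3 and 32, 19 and 41 in knockouts 1 to 3. It averaged 0.140 CPM ± 0.0427 in the controls and 0.833 CPM ± 0.279 in knockout. Its edgeR adjusted p was 0.0755 without the block and 0.0296 with it. Cdkn1c entered the test only through the knockouts, so its calls lend no support to the difference. With sex as a covariate its edgeR adjusted p was 0.408 and its log2 fold change 2.12 in place of 2.52. That covariate fit called 21 of 13115 genes. Errfi1, a feedback inhibitor of the EGF receptor, ranged from 6.98 to 22.1 CPM among controls and from 12.1 to 63.1 CPM among knockouts (edgeR adjusted p 0.497 without and 0.00279 with the block), and without knockout 3 its log2 fold change went from 1.26 to 0.37. Nfkbia, an inhibitor of NF-kappaB, averaged 8.93 CPM ± 2.36 and 15.4 CPM ± 5.99, with overlapping groups (edgeR adjusted p 0.316 without and 0.0133 with the block). Fkbp5, a cochaperone that the glucocorticoid receptor induces, averaged 3.27 CPM ± 0.950 in the controls and 1.93 CPM ± 0.588 in knockout (adjusted p 0.279, edgeR), the lower member at an unadjusted p under 0.05. The median log2 fold change of the list was 0.20 beside 0.02 over all genes, with 13 genes above and 6 below 0. The groups of 1 of the 19 did not overlap, beside 22.9% of all tested genes.

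All 14 targets of ERR alpha and PGC-1 were tested and 0 were called by edgeR, limma-voom or DESeq2, or with the block. At an unadjusted p under 0.05 there was 1, beside 16.7% of all genes. They summed to 544 CPM ± 66.2 in the controls and 527 CPM ± 31.0 in knockout (SD, n = 3). Of 26 enzymes and carriers of steroids 13 were tested and the same tools called 0, with 2 at an unadjusted p under 0.05. Over the 7 lists together 137 of 174 genes were tested and 1 was called (Pgr), 0.730% beside the 0.945% of all genes, and 12 with the block, 8.76% beside 5.99%.

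The tested genes nearest to Greb1 differed far less between the groups than Greb1, which was picked for its difference. These 10 genes, 5 on each side in the GRCm38 annotation, had log2 fold changes from -0.41 to 0.46. They reached as far as 466 kb on the 5′ side and 3421 kb on the 3′ side. edgeR, DESeq2, limma-voom and the blocked fit called 0 of the 10, beside 0.945%, 4.62%, 0.64% and 5.99% of all tested genes. An unadjusted p under 0.05 was found for 1, beside 16.7%. With 10 genes these counts lie near those shares, and nothing about the locus is read from them. On the 5′ side E2f6, a transcriptional repressor of the E2F family, ranged from 3.02 to 5.30 CPM among controls and from 4.93 to 7.14 CPM among knockouts, with overlapping groups. On the 3′ side Lpin1, a phosphatidate phosphatase, ranged from 4.40 to 6.62 CPM and from 4.65 to 7.72 CPM. Ddx1, an RNA helicase and the fifth tested gene on that side, was the 1 neighbour whose groups did not overlap, at 23.6 CPM in the controls and 17.8 CPM in the knockouts (adjusted p 0.156, edgeR). Over all tested genes the groups of 22.9% did not overlap.

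**Figure D4:**
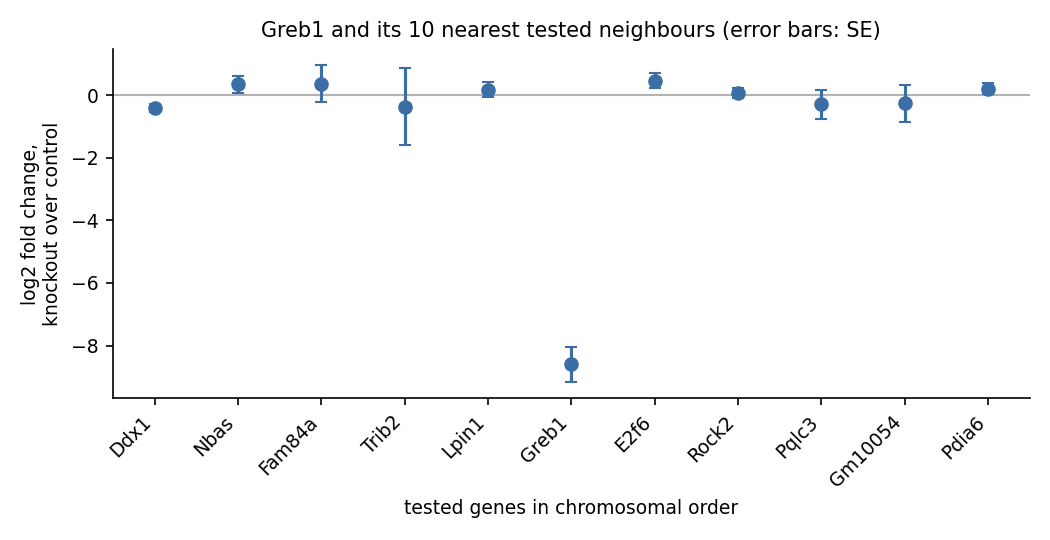
Fitted log2 fold change, knockout over control, of Greb1 and its 10 nearest tested neighbours in chromosomal order (not to scale), with the SE as error bars. Greb1 lies at -8.60 and its neighbours lie between -0.41 and 0.46.

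The genes whose pattern was most like that of Greb1 were named by the Pearson correlation of log2 CPM over the 6 libraries, among 10245 protein-coding genes with at least 1 CPM in control. They were Gal3st1, a sulfotransferase gene of sulfatide synthesis, Rpp40, a subunit of ribonuclease P, Eri3, Mbd2, which reads methylated DNA, and Fam189a2. Their correlations ran from 0.988 to 0.994, and the points share the groups, so the measure mostly picks genes that differ between them by a steady amount. All 5 had groups that did not overlap, with higher levels in control, beside 22.9% of all tested genes without overlap in either direction. Since they were ranked by likeness to Greb1, nothing is read from this count. Gal3st1 averaged 3.92 CPM ± 0.587 in the controls and 1.44 CPM ± 0.113 in knockout, and Fam189a2 9.34 CPM ± 1.73 and 3.74 CPM ± 0.284 (SD, n = 3). Mbd2 averaged 21.0 CPM ± 0.289 and 12.2 CPM ± 0.553. None of them approached 0 in knockout: the knockout mean of Gal3st1 was 0.369 of the control by the fit. The 4 other members correlated with Greb1 at 0.22 for Greb1l, 0.40 for Esr1, 0.22 for Esrra and 0.34 for Nr3c1.

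**Figure D5:**
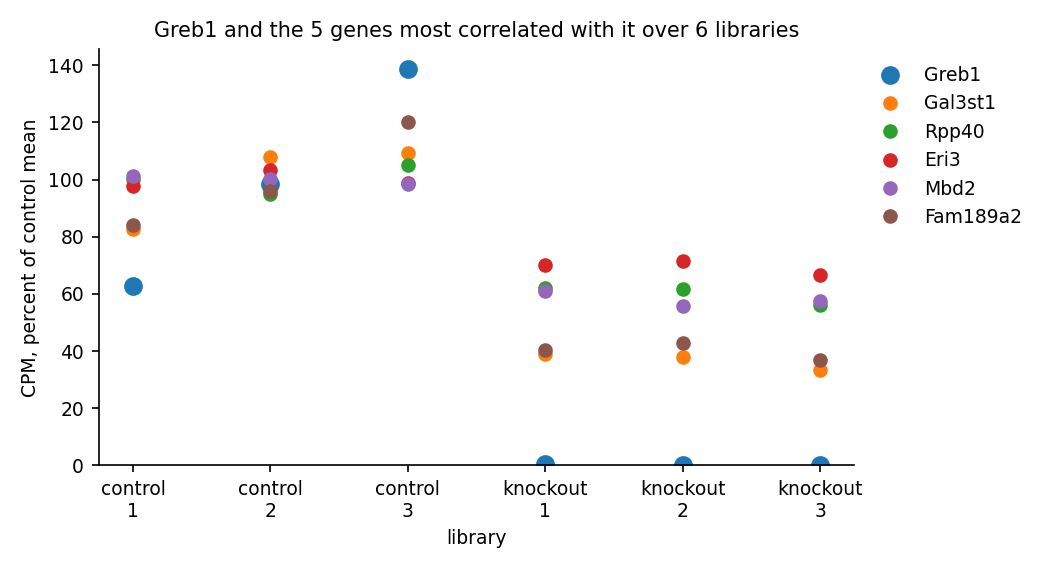
CPM of Greb1 (large blue points) and of the 5 genes most correlated with it, as a percentage of each gene's control mean, in each library. All 6 genes are lower in each knockout than in any control, and Greb1 alone lies near 0 there.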

How the data were processed

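RNA was measured in 6 acinar cell preparations, 3 control and 3 knockout, from poly-A selected libraries primed with random hexamers, per the labels' protocols. Deposited values were raw counts per gene, without regard to strand and for each orientation. The submitters' processing notes name STAR 2.7.10a and build GRCm39, and the annotation used is not given in the sources used here. Reads mapped to several places, ambiguous reads and reads outside genes stayed out of library sizes. Symbols were found for 94.0% of identifiers. Names, exonic lengths, overlaps, gene order and distances between genes came from GENCODE M21 on GRCm38, so no gene coordinates are given.

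Unstranded counts were tested across all genes passing filterByExpr with edgeR 4.0.16 (R 4.3.3, TMM factors, robust quasi-likelihood F test, Benjamini-Hochberg adjustment) and called at an adjusted p under 0.05. The SE was taken as the log2 fold change divided by the root of F. Log2 CPM used a prior count of 2, while the log2 fold changes fitted by edgeR kept its default prior count. DESeq2 1.42.0 and limma 3.58.1 (voom) were alternatives. Ratios of summed counts carry exact 95% Clopper-Pearson intervals, which cover counting error only. All pairs of libraries differed by more than counting noise.

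Replicate numbers are shared between the groups in the labels. Deviations from group means correlated at 0.630, 0.455 and 0.285 in pairs 1 to 3. Between libraries of unlike number they ran from -0.496 to 0.210, the highest for control 3 with knockout 2. Deviations within a group sum to 0, so these values cannot settle whether the preparations were paired. The labels do not state it, and pairs 2 and 3 set a female control against a male knockout. The block is therefore an assumption, and blocked values stand where they change a call.

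Members, lists and tests were chosen with earlier results of these data known. The rule for named genes took the members, called list genes, the 5 nearest tested genes on each side of Greb1 and the 5 most correlated with it. List genes called only with the block or DESeq2, and other list genes named, were chosen after their values were seen. Some list genes are not reported here.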

Additional observations from a re-analysis of the deposited data

How the results depend on the processing

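The number of genes called, 124 of 13115 (61 higher, 63 lower), became 1519 with library totals (1442 higher, 77 lower, as that scaling raised the median of all genes from 0.02 to 0.43), 850 without a filter on low counts, 210 where each library needed 10 counts or more, 593 with DESeq2, 785 with the replicate block, 21 with sex as a covariate, 18 in male libraries and between 20 and 461 with 1 library left out (20 on leaving out control 2, 24 knockout 3, 27 knockout 1, 54 control 3 and 461 control 1). The call in the 7 gene lists, 1, became 21 with library totals, 14 without a filter, 2 with the stricter filter, 7 with DESeq2, 2 with forward-strand and 2 with reverse-strand counts, 3 with the sum of both strand columns, 12 with the replicate block, 0 with sex as a covariate, 0 in male libraries and 0 to 7 with 1 library left out. The cause of these moves was not tested, apart from the shift of all genes. The log2 fold change of Greb1, -8.60, was -9.32 with forward-strand counts, -7.93 with sex as a covariate, -7.93 in male libraries and between -9.41 and -8.07 with 1 library left out, and the filter of 10 counts removed Greb1 from the test. Esrra and Nr3c1 had the opposite sign with library totals, and Esrra also in male libraries (0.27), with sex as a covariate (0.25) and on leaving out control 3 (0.15) or knockout 3 (0.08). No neighbour was called in any of the 21 alternatives, of which the filter of 10 counts tested 7 of the 10 and the forward-strand and reverse-strand counts 8 each. The replicate block changed no other call of a member or neighbour. Reads shared by both strand models are given above as counts and as shares, which cannot be set on 1 scale.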

Other observations

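Greb1 and Pgr were both among the few genes that went from counted to uncounted between the groups, in opposite directions. Of 6688 genes with at least 100 counts in every control, Greb1 was the only one with at most 3 counts in every knockout library. With at least 20 counts as the limit there were 4 such genes, of which the other 3 were the pseudogenes Gm8210, Gm3650 and Pcna-ps2. The reverse pattern, at least 20 counts in every knockout and at most 3 in every control, was met by 3 of 11050 genes, all protein-coding. They were Pgr, Moxd1, a monooxygenase-like gene with 27, 24 and 47 counts in the knockouts and 0, 0 and 2 in control, and Serpina5, the protein C inhibitor, with 39, 32 and 41 counts and 0, 0 and 3. This count was made after the values of Greb1 and Pgr had been seen, and the cause was not tested.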
